A study of Mus musculus with 23 samples.

Results

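The 10 genes described here are *Slc2a1*, *Hk2*, *Pfkp*, *Aldoa*, *Pgk1*, *Eno1*, *Pkm*, *Ldha*, *Hif1a* and *Car9*, which encode proteins of glucose uptake, glycolysis and the response to low oxygen. They were chosen by symbol and take up 11 of the 55449 rows of the count table, since *Aldoa* has a second row (ENSMUSG00000114515.2) with at most 11 counts in any library. All 10 genes passed the filter on low counts through their main rows in every comparison, and the second *Aldoa* row did not. RNA was measured by sequencing in 23 libraries of mouse colon. All libraries came from male C57BL/6 *Cdx*2*Apc*f/w mice, in which Cre driven by the *Cdx2* promoter removes 1 floxed *Apc* allele and colon tumors form. The mice were 6 to 8 weeks old at the start, ate a high-fat diet (HFD, 60%), and had received antibiotic water before they were given *Bacteroides fragilis* 638R. BF BSHlow is this bacterium with an empty vector, and BF BSHhigh is the same bacterium with the bile salt hydrolase gene (*bsh*) of another *B. fragilis* strain. The 6 groups were normal colon after 2 weeks (4 BF BSHlow and 4 BF BSHhigh), non-tumor tissues after 12 weeks (4 and 4) and tumors after 12 weeks (4 and 3). There were no mice without bacteria, without the diet or without Cre among them. The headers of the 3 BF BSHhigh tumor columns repeat names of BF BSHlow tumors, and these columns were assigned as a group, so they are called a, b and c here.

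Glycolysis converts glucose to pyruvate in the cytosol, and lactate dehydrogenase turns pyruvate into lactate when it does not enter the mitochondria. Many tumors take up more glucose and release more lactate than the tissue around them, even where oxygen is present. Hypoxia-inducible factor (HIF) is a transcription factor whose alpha subunit is degraded while oxygen is available. Under low oxygen it binds short DNA motifs with the core ACGTG or GCGTG and raises many glycolysis genes. The surface of the colon is low in oxygen in health, and colon epithelial cells also burn butyrate made by bacteria. The level of *Hif1a* RNA is not the amount of HIF protein, which was not measured in these libraries.

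The promoters are shown because the genes are commonly grouped as targets of one transcription factor. RefSeq start sites on GRCm38.p6 gave 16 windows of 250 bases upstream of the 10 genes. Of these, 14 (87.5%) held ACGTG or GCGTG on either strand, and each of the 10 genes had at least 1 such window. The share of all 27025 genes with such a window was not counted. Among the 14 are 2 overlapping windows of *Aldoa* and 2 of *Eno1* that share their matches, so the windows are not independent. Among all 32851 windows of this length, 38.6% held either core, 16.6% held ACGTG, 28.2% held GCGTG and 6.02% held the palindrome CACGTG, in which ACGTG is counted on both strands. In 4 of the windows, given here 5′ to 3′ on the gene's strand, capitals mark the cores (CACGT and CACGC where they lie on the other strand). They are the windows of *Pgk1* (chrX:106186850-106187099, plus strand), *Ldha* (chr7:46845554-46845803, plus strand), *Hk2* (chr6:82774455-82774704, minus strand) and *Pfkp* (chr13:6648772-6649021, minus strand).
Pgk1: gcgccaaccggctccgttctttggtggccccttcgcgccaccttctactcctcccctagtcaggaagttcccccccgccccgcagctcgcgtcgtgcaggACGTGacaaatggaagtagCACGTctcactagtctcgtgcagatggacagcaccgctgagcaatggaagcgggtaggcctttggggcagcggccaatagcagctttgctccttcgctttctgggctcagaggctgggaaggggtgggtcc
Ldha: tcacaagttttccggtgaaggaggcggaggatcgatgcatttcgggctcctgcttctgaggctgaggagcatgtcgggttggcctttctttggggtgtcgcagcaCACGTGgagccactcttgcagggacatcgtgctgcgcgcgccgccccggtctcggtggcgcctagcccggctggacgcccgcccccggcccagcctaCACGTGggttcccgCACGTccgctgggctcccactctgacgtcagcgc
Hk2: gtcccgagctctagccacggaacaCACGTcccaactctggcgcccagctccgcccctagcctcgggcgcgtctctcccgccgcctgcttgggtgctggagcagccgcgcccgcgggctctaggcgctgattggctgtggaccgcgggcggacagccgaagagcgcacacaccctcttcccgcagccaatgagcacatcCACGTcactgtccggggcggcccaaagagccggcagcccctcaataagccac
Pfkp: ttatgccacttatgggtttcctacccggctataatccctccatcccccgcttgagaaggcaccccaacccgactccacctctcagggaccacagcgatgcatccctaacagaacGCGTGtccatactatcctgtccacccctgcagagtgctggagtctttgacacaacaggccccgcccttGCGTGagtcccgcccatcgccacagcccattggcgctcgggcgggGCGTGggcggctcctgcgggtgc
The *Ldha* window held 5 matches to ACGTG, including CACGTG at 2 positions, and its start site lies inside the gene as GENCODE M21 draws it. The windows of *Pgk1* and *Hk2* held 2 matches each, all to ACGTG, and that of *Pfkp* held 3, all to GCGTG. Of all windows, 16.7% held 2 or more matches and 6.58% held 3 or more. These are matches of letters, and binding was not measured. The RNA of the 4 genes differed in direction between the groups. *Pfkp* and *Ldha* were lower in tumors, *Pgk1* and *Hk2* were higher in non-tumor tissues at 12 weeks than in normal colon at 2 weeks, and *Ldha* was lower there.

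Total expected counts were between 12401388 and 17903008 per library (median 15874872). Levels are given as CPM, the count as a share of the library size scaled by the trimmed mean of M-values (TMM). The TMM factor was between 1.17 and 1.34 in tumors, 0.938 and 1.03 in non-tumor tissues and 0.743 and 0.949 at 2 weeks. A larger factor gives a lower CPM, and no fit without such scaling was made. CPM is not divided by gene length, so levels are compared between libraries and not between genes. Expected counts share reads that fit several places, and *Pgk1*, *Eno1* and *Pkm* had a count that is not whole in 23 of 23 libraries, *Hif1a* in 16 and *Ldha* in 5. The near copies held little of the signal, with *Eno1b* at 0.411% of *Eno1*, *Pgk1-rs7* at 0.205% of *Pgk1* and *Ldha-ps2* at 0.00899% of *Ldha*. Exons of *Slc2a1*, *Pfkp*, *Aldoa*, *Hif1a* and *Car9* overlap genes on the other strand (*Gm12868*, *Pitrm1*, *Fam57b*, *Gm15283* and *Gm12454*), and whether the counting used strand is not given in the sources used here. Exons of *Pkm* and *Hif1a* also overlap *Gm49759* and *Gm49321* on the same strand.

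Across the 6 groups, the ratio of the highest to the lowest group mean was 4.27 for *Hif1a*, 2.79 for *Pfkp* and 2.12 for *Hk2*. It was between 1.41 and 1.76 for the other 7 genes, with *Aldoa* at 1.41 and *Eno1* at 1.76. The order of the groups was not the same for all genes. *Pfkp*, *Aldoa*, *Ldha*, *Slc2a1* and *Car9* had their highest mean in normal colon at 2 weeks. *Pkm* and *Eno1* had their highest means in BF BSHlow tumors, *Hk2* and *Hif1a* in BF BSHhigh tumors and *Pgk1* in BF BSHhigh non-tumor tissues. Neighbours in the order of group means had overlapping libraries in all but 3 places, a count that was not made for all genes. The exceptions were *Eno1* between BF BSHhigh tumors and BF BSHhigh non-tumor tissues, *Ldha* between BF BSHhigh non-tumor tissues and BF BSHhigh tumors, and *Hif1a* between BF BSHlow tumors and BF BSHhigh normal colon at 2 weeks. Between BF BSHhigh tumors and non-tumor tissues, 32.2% of all genes tested were separated upward and 29.0% downward, so the gaps of *Eno1* and *Ldha* are common ones. For the pair of groups named for *Hif1a*, no such share was counted.

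**Figure D1:**
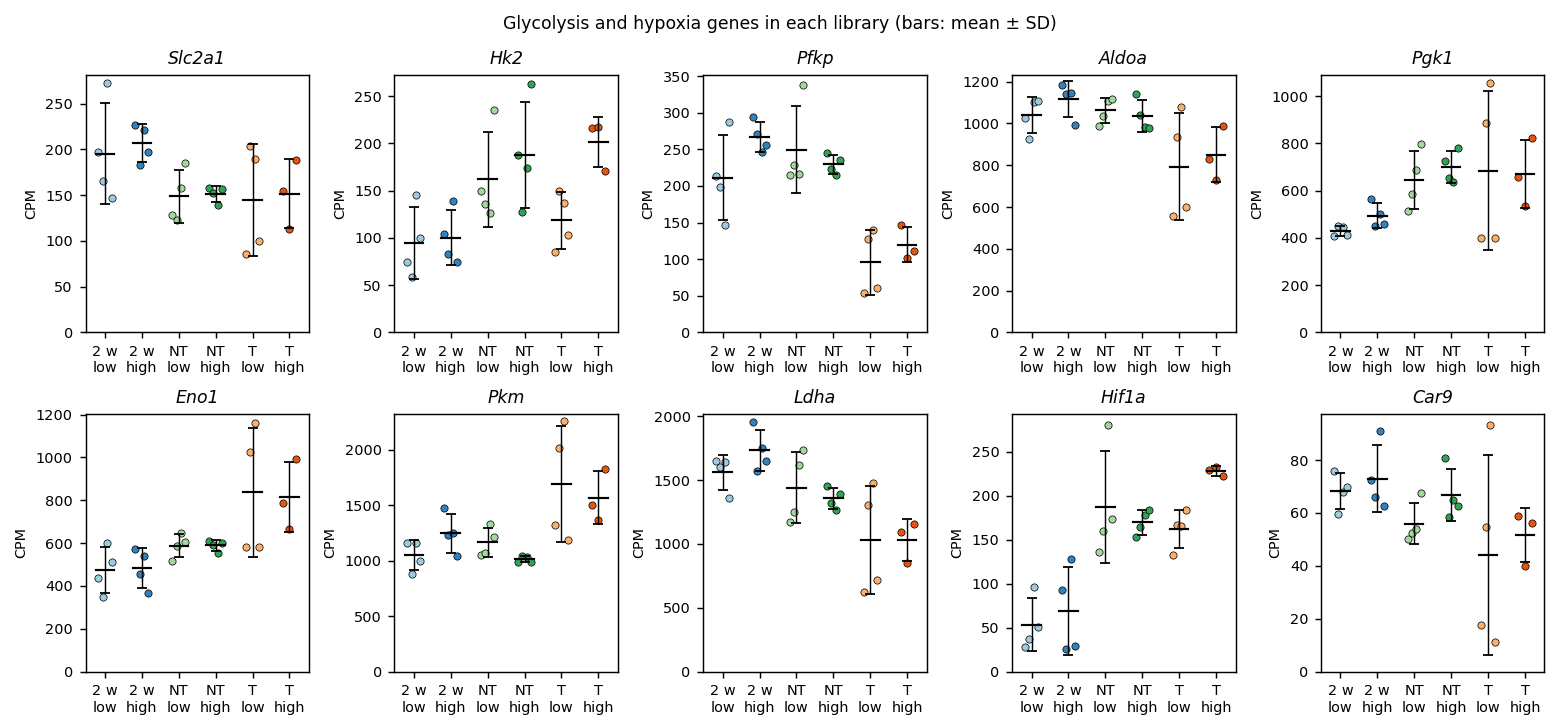
Level of each of the 10 genes in CPM (TMM-scaled) in every library, with 1 panel per gene and the 6 groups along the horizontal axis (2 w, normal colon at 2 weeks; NT, non-tumor tissues at 12 weeks; T, tumors at 12 weeks; low and high, BF BSHlow and BF BSHhigh). Points are libraries and bars are the mean ± SD (n = 4, or 3 for BF BSHhigh tumors), and *Pfkp* in tumors lies between 53.4 and 147 CPM, below the non-tumor libraries at 215 to 338.

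Tumors were compared with non-tumor tissues after 12 weeks to see which of these genes differ between tumor and adjacent colon. Averaged over both strains, *Pkm* and *Eno1* rose in tumors, and *Pfkp*, *Aldoa* and *Ldha* fell. *Slc2a1*, *Hk2*, *Pgk1*, *Hif1a* and *Car9* did not pass the test. The TMM factor was larger in each tumor than in each non-tumor library, and its part in these fold changes was not tested. In this comparison 37.3% of the 16454 genes tested were called higher and 34.9% lower at an adjusted p under 0.05 (edgeR, Benjamini-Hochberg), so 2 higher and 3 lower of 10 is no larger a share than among all genes. With an absolute log2 fold change over 1 as well, 16.4% were called higher and 18.4% lower, and *Pfkp* was the 1 gene of the 10 past that bound. The median log2 fold change was -0.11 over the 10 genes and 0.04 over all genes.

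*Slc2a1* (4:119108711-119137983, plus strand, GRCm38) encodes GLUT1, the widely expressed glucose transporter at the entry of the pathway. Its level was between 123 and 185 CPM in the 8 non-tumor libraries (median 154) and between 85.4 and 204 CPM in the 7 tumors (median 154). The tumors lay on both sides of the non-tumor libraries. The log2 fold change was -0.03 (95% interval -0.39 to 0.33, adjusted p = 0.878).

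*Hk2* (6:82725025-82774454, minus strand) encodes hexokinase 2, which phosphorylates glucose and is the isoform most often linked to tumors. It was at 149, 136, 126 and 236 CPM in BF BSHlow and 188, 127, 174 and 263 CPM in BF BSHhigh non-tumor tissues. Tumors had 84.7, 149.9, 137 and 103 CPM with BF BSHlow and 216, 217 and 171 CPM with BF BSHhigh. The tumors and the non-tumor tissues overlapped within both strains. The log2 fold change over both strains was -0.19 (interval -0.54 to 0.16, adjusted p = 0.355).

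*Pfkp* (13:6579768-6648777, minus strand) encodes the platelet-type phosphofructokinase, which catalyses the committed step of glycolysis. Non-tumor tissues had 215, 228, 217 and 338 CPM with BF BSHlow and 244, 223, 215 and 235 CPM with BF BSHhigh. Tumors had 53.4, 128, 140.1 and 60.2 CPM with BF BSHlow and 147, 101 and 112 CPM with BF BSHhigh. Each of the 7 tumors was below each of the 8 non-tumor libraries, as was the case for 20.8% of all genes tested (22.1% lay above without overlap). The mean fell from 239 ± 41.1 CPM (SD, n = 8) to 106 ± 37.1 CPM (SD, n = 7), a fold of 0.442 (log2 fold change -1.18, SE 0.20, adjusted p = 0.000116). Of the other phosphofructokinase isoforms, the muscle-type *Pfkm* also fell (log2 fold change -0.71, SE 0.13, adjusted p = 0.000189), and the liver-type *Pfkl* did not pass the test (log2 fold change 0.06, SE 0.17, adjusted p = 0.77). These isoforms belong to the list of other glycolysis genes and were chosen for naming after their values were seen.

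*Aldoa* (7:126795234-126800751, minus strand) encodes aldolase A, which splits the phosphorylated sugar. Its level was between 979 and 1141 CPM in non-tumor tissues. Tumors had 558, 936, 1081 and 599 CPM with BF BSHlow and 831, 729 and 989.9 CPM with BF BSHhigh. Of the 7 tumors, 5 were below the lowest non-tumor library. The fold was 0.775 (log2 fold change -0.37, SE 0.13, adjusted p = 0.0211), and without tumor b of BF BSHhigh it no longer passed (adjusted p = 0.0619).

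*Pgk1* (X:106187100-106203699, plus strand) encodes phosphoglycerate kinase 1, the first step of the pathway that yields ATP. Non-tumor tissues had 515, 585, 688 and 796 CPM with BF BSHlow and 726, 653, 635 and 781 CPM with BF BSHhigh. The BF BSHlow tumors had 398, 885, 1056 and 400.2 CPM, and the BF BSHhigh tumors 656, 536 and 822 CPM. The BF BSHlow tumors lay both above and below every non-tumor library. The log2 fold change was -0.00 (interval -0.40 to 0.40, adjusted p = 0.989).

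*Eno1* (4:150236721-150248879, plus strand) encodes enolase 1, which forms phosphoenolpyruvate. Non-tumor tissues had 514, 586, 646 and 606 CPM with BF BSHlow and 610.3, 593, 554 and 601 CPM with BF BSHhigh. Tumors had 579.9, 1026, 1163 and 583 CPM with BF BSHlow and 788, 666 and 991 CPM with BF BSHhigh. Replicates 1 and 4 of the BF BSHlow tumors lay within the non-tumor range, and the other 5 tumors lay above it. The mean rose from 589 ± 39.6 CPM (SD, n = 8) to 828 ± 234 CPM (SD, n = 7), a fold of 1.39 (log2 fold change 0.47, SE 0.15, adjusted p = 0.00957).

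*Pkm* (9:59656368-59679375, plus strand) encodes the muscle and tumor form of pyruvate kinase, the last step of glycolysis. The table counts the gene as a whole, so its M1 and M2 splice forms are not told apart. Non-tumor tissues had 1048, 1069.8, 1329 and 1212 CPM with BF BSHlow and 986, 1038, 1029 and 992 CPM with BF BSHhigh. Tumors had 1319, 2016, 2254 and 1183 CPM with BF BSHlow and 1504, 1368 and 1828 CPM with BF BSHhigh. Replicates 1 and 4 of the BF BSHlow tumors were again within the non-tumor range and the other 5 above it. The fold was 1.49 (log2 fold change 0.57, SE 0.13, adjusted p = 0.0012). *Pkm*, *Eno1* and *Pfkp* kept their calls with each of the 15 libraries left out.

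*Ldha* (7:46841475-46855627, plus strand) encodes the subunit of lactate dehydrogenase that favours lactate formation. Non-tumor tissues had 1168, 1246, 1619 and 1731 CPM with BF BSHlow and 1455, 1321, 1264 and 1391 CPM with BF BSHhigh. Tumors had 622, 1305, 1477 and 719.7 CPM with BF BSHlow and 1095, 848 and 1155 CPM with BF BSHhigh. Replicates 2 and 3 of the BF BSHlow tumors lay within the non-tumor range, and the other 5 tumors lay below it. The fold was 0.730 (log2 fold change -0.45, SE 0.18, adjusted p = 0.0307). The call was lost in 4 of 15 fits with 1 library left out (replicates 3 and 4 of BF BSHlow non-tumor tissues, replicate 4 of BF BSHlow tumors and tumor b of BF BSHhigh), with an adjusted p of up to 0.0818.

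*Hif1a* (12:73901375-73947530, plus strand) encodes the oxygen-regulated alpha subunit of HIF. Non-tumor tissues had 136, 159, 279.9 and 174 CPM with BF BSHlow and 153, 165, 178 and 184 CPM with BF BSHhigh. Tumors had 133, 167, 166 and 184 CPM with BF BSHlow and 229.5, 233 and 222 CPM with BF BSHhigh. The BF BSHlow tumors overlapped the non-tumor tissues, and the BF BSHhigh tumors were above all of them but replicate 3 of BF BSHlow. Over both strains the log2 fold change was 0.10 (SE 0.13, adjusted p = 0.511). Without that replicate it passed the test, at 0.22 (adjusted p = 0.0275).

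*Car9* (4:43506966-43513729, plus strand) encodes a membrane carbonic anhydrase that is a classical target of HIF. Non-tumor tissues had between 49.97 and 80.9 CPM. Tumors had 17.5, 54.9, 93.1 and 11.1 CPM with BF BSHlow and 58.7, 39.9 and 56.0 CPM with BF BSHhigh. The highest and the lowest of these 15 libraries were both BF BSHlow tumors. The log2 fold change was -0.38 (interval -1.04 to 0.29, adjusted p = 0.331), and it passed the test without replicate 3 of the BF BSHlow tumors (-0.71, adjusted p = 0.0337).

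**Figure D2:**
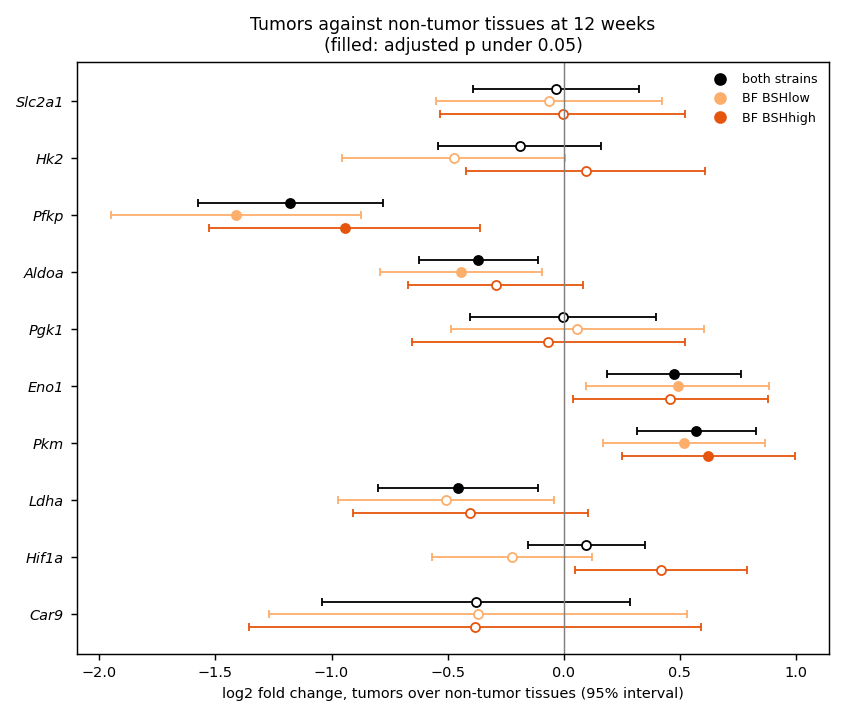
Log2 fold change of tumors against non-tumor tissues for the 10 genes over both strains and within each strain, with bars for the 95% interval. *Pkm* and *Eno1* lie above 0 and *Pfkp* lies lowest, at -1.18 over both strains.

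Other cell types differed between the tissues as well. The 8 epithelial markers summed to between 9684 and 13209 CPM in non-tumor tissues and between 4523 and 8509 CPM in tumors, and 7 of them fell while *Krt18* rose. All 7 smooth muscle markers fell, from summed levels of 1554 to 8755 CPM to 128 to 366 CPM. Fibroblast markers summed to 310.0 to 3171 CPM in non-tumor tissues and 1490.2 to 3453 CPM in tumors (3 of 5 rose), and endothelial markers to 52.6 to 118 and 171 to 212 CPM (4 of 5 rose). All 5 neutrophil markers rose (1.71 to 130 against 46.0 to 437 CPM). Among macrophage markers 2 of 5 rose and *Cd163* fell (36.1 to 138 against 79.7 to 226 CPM), and 4 of 6 lymphocyte markers fell (24.3 to 275 against 12.0 to 64.7 CPM). Red blood cell markers summed to 122 to 2462 and 274 to 3502 CPM (4 of 5 rose), and skeletal muscle markers to 6.20 to 28.9 and 2.00 to 5.43 CPM (1 rose and 2 fell of 4 tested), with 1 or 2 of its 5 genes at 0 in each group. All 5 proliferation markers rose (139.6 to 314 against 376 to 775 CPM), as did all 5 WNT target genes (34.7 to 56.3 against 659 to 1447 CPM), which *Apc* holds down. No defining marker outside the skeletal muscle list was at 0 throughout a group. The part of these shifts in the values of the 10 genes was not tested, and in bulk tissue fewer cells of a type and less RNA per cell cannot be told apart.

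Within BF BSHlow, *Pkm* (log2 fold change 0.52, adjusted p = 0.0192) and *Eno1* (0.49, adjusted p = 0.0438) rose in tumors. *Pfkp* (-1.41, adjusted p = 0.000425) and *Aldoa* (-0.44, adjusted p = 0.0409) fell. In this comparison 33.3% of all genes were called higher and 32.2% lower. For *Pfkp* the tumors were all below the non-tumor libraries, which held for 27.7% of all genes (29.3% were all above). With 1 library left out, the call was lost in 6 of 8 fits for *Eno1*, 5 of 8 for *Aldoa* and 4 of 8 for *Pkm*, and in none for *Pfkp*.

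Within BF BSHhigh, *Pkm* rose (log2 fold change 0.62, adjusted p = 0.0124) and *Pfkp* fell (-0.94, adjusted p = 0.0148), against 29.4% and 27.2% of all genes. The other 8 genes did not pass, with *Eno1* at 0.46 (adjusted p = 0.0826) and *Hif1a* at 0.42 (adjusted p = 0.0727). *Eno1*, *Pkm* and *Hif1a* were higher in each of the 3 tumors than in each of the 4 non-tumor libraries, and *Pfkp* and *Ldha* were lower in each. Such separation was seen upward in 32.2% and downward in 29.0% of all genes. Without tumor b or tumor c the call of *Pfkp* was lost (adjusted p of up to 0.0648), and without tumor c that of *Pkm* (adjusted p = 0.0693).

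The interaction term tested whether the tissue contrast differed between the strains. For the 10 genes, 0 passed in either direction, against 0.978% of all genes higher and 0.0122% lower, and 1 of the 10 (*Hif1a*) and 1580 of all 16454 genes had an unadjusted p under 0.05. *Hif1a* had a log2 difference of 0.64 (SE 0.26, edgeR adjusted p = 0.409). DESeq2 called 0 of the 10 as well. The intervals stayed wide, for *Car9* from -1.33 to 1.31 and for *Pkm* from -0.41 to 0.62.

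The median spread of the 10 genes between libraries was highest in the BF BSHlow tumors, which was not tested. The coefficient of variation (SD over mean) had a median of 38.5% over the 10 genes in this group, and of 15.1% over all genes with at least 1 CPM there. In the other groups the medians of the 10 genes were 19.0% (BF BSHlow non-tumor), 6.68% (BF BSHhigh non-tumor), 17.7% (BF BSHhigh tumors), 17.8% (BF BSHlow at 2 weeks) and 12.5% (BF BSHhigh at 2 weeks), with all genes between 12.1% and 15.1%. *Hif1a* and *Hk2* varied more in other groups, with *Hif1a* at 13.2% in the BF BSHlow tumors and 56.7% and 72.3% at 2 weeks. In the BF BSHlow tumors the highest value was 8.39 times the lowest for *Car9*, 2.66 times for *Pgk1* and 1.39 times for *Hif1a*. Against the mean of the 8 non-tumor libraries, replicate 1 was above it for 1 of 10 genes (median log2 ratio -0.86), replicate 2 for 4 (-0.10), replicate 3 for 7 (0.21) and replicate 4 for 2 (-0.76). The BF BSHhigh tumors a, b and c were above it for 5, 4 and 5 genes, with medians of 0.00, -0.37 and 0.13. Among all 16420 genes with a value, between 49.5% and 51.4% were above it in these 7 tumors, with medians between -0.01 and 0.04. In the order of the replicates, the epithelial markers of the BF BSHlow tumors summed to 5224, 7996, 8136 and 4523 CPM, and the proliferation markers to 402, 775, 672 and 376 CPM. Fibroblast (1983, 3453, 2571 and 1490.2 CPM), red blood cell (1119, 1802, 3502 and 344 CPM) and smooth muscle markers (183, 213, 265 and 128 CPM) were also higher in replicates 2 and 3. WNT target genes (1144, 882, 849.7 and 1447 CPM), neutrophil (119, 46.0, 89.4 and 372 CPM), macrophage (214, 79.7, 115 and 153 CPM) and lymphocyte markers (42.9, 12.0, 24.8 and 30.1 CPM) were lower there. Endothelial (171 to 194 CPM) and skeletal muscle markers (2.49 to 5.11 CPM) followed neither order. The part of these levels in the spread was not tested.

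**Figure D3:**
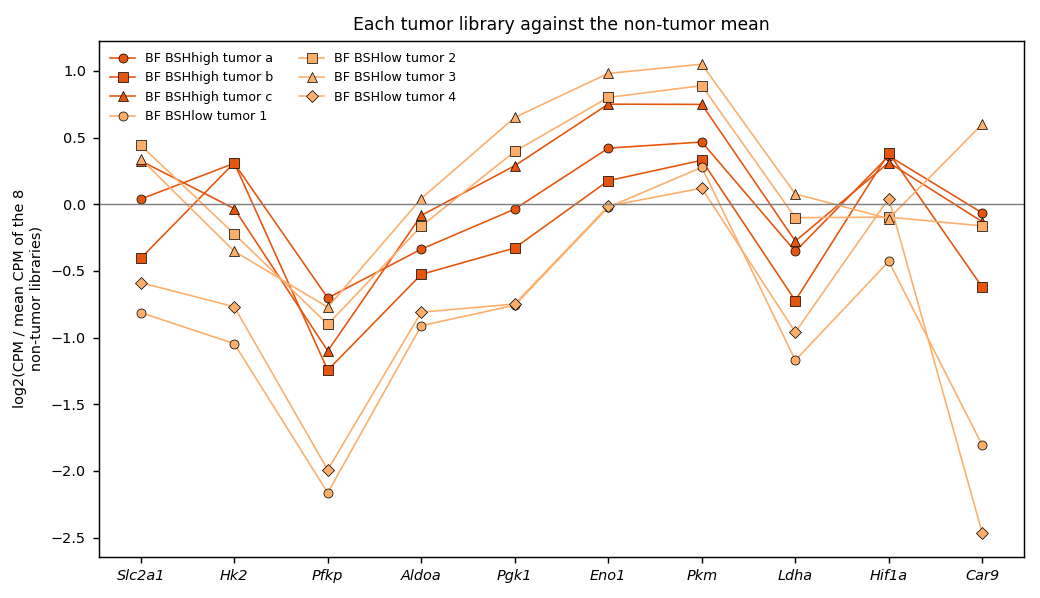
Log2 ratio of each tumor library to the mean of the 8 non-tumor libraries for the 10 genes, with 1 line per tumor. Replicates 1 and 4 of the BF BSHlow tumors lie below 0 for 9 and 8 of the 10 genes, and replicate 3 lies above 0 for 7.

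BF BSHhigh was compared with BF BSHlow in each tissue to see whether the added *bsh* gene went with other levels of these genes. In tumors, 0 of the 10 genes were called with edgeR in either direction, against 0.47% of 15325 genes called higher and 0.0392% lower. An unadjusted p under 0.05 was seen for 2 of the 10 and for 1946 of all 15325. The 2 were *Hif1a* (log2 fold change 0.48, interval 0.26 to 0.71, adjusted p = 0.112) and *Hk2* (0.76, interval 0.38 to 1.13, adjusted p = 0.128). In both, each of the 3 BF BSHhigh tumors was above each of the 4 BF BSHlow tumors, which held for 7.93% of all genes upward and 3.89% downward. For *Hif1a* the means were 228 ± 5.77 CPM (SD, n = 3) and 162 ± 21.4 CPM (SD, n = 4), and for *Hk2* 201 ± 26.4 and 119 ± 30.1 CPM. DESeq2 called both (adjusted p = 0.00788 for *Hif1a* and 0.0108 for *Hk2*) with the same log2 fold changes. The share of all genes that DESeq2 called here was not counted, so these 2 calls have no background beside them. The other 7 settings called neither gene. With edgeR and 1 tumor left out, the adjusted p was between 0.127 and 0.359 for *Hif1a* and between 0.125 and 0.448 for *Hk2*. For the other 8 genes the log2 fold change was between -0.12 (*Pkm*) and 0.33 (*Pfkp*), and the intervals reached from -1.02 to 1.47 for *Car9*. Among the markers, 0 of the listed genes of any cell type were called between these tumors. Lymphocyte markers had a median log2 fold change of 1.61 and summed to 43.6 to 64.7 CPM with BF BSHhigh and 12.0 to 42.9 CPM with BF BSHlow, and their part in the values of *Hif1a* and *Hk2* was not tested.

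In non-tumor tissues, 0 of the 10 genes and 0 of all 14933 genes were called, with 1 of the 10 and 1377 of all genes at an unadjusted p under 0.05 in edgeR, and DESeq2 also called 0 of the 10. That gene was *Pkm*, with a log2 fold change of -0.21 (SE 0.09, adjusted p = 0.534). Its 4 BF BSHhigh libraries, at 986 to 1038 CPM, were below the 4 BF BSHlow libraries, at 1048 to 1329 CPM, which held for 2.15% of all genes (3.23% were above). In normal colon at 2 weeks, 0 of the 10 genes were called with edgeR or DESeq2 and 0 had an unadjusted p under 0.05, against 0.00727% of 13752 genes called. The strains overlapped there for each of the 10, and were separated for 2.09% of all genes upward and 1.55% downward. The log2 fold change at 2 weeks lay between 0.02 (*Eno1*) and 0.36 (*Hif1a*, interval -0.68 to 1.41).

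Non-tumor tissues at 12 weeks were compared with normal colon at 2 weeks, which differ in time of diet and colonization, in age and in the presence of tumors elsewhere in the colon. *Hif1a*, *Hk2*, *Pgk1* and *Eno1* were higher at 12 weeks and *Slc2a1* and *Ldha* lower, with *Hif1a* the one past an absolute log2 fold change of 1. Among the 15532 genes tested, 33.0% were called higher and 30.2% lower, and 18.5% and 8.02% with the bound on the fold. The effects of time, age and tumors cannot be told apart in this comparison, nor from the differences in cell markers given below.

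At 2 weeks *Hif1a* was at 28.6, 37.5, 96.8 and 50.7 CPM with BF BSHlow and 92.3, 25.6, 128 and 29.4 CPM with BF BSHhigh. Each of these 8 libraries was below each of the 8 non-tumor libraries at 12 weeks (136 to 279.9 CPM), as held for 14.6% of all genes (10.9% were all lower at 12 weeks). The fold was 2.94 (log2 fold change 1.56, SE 0.33, adjusted p = 0.000641). *Hk2* had between 59.0 and 146 CPM at 2 weeks (median 91.1) and between 126 and 263 CPM at 12 weeks (median 161). Its log2 fold change was 0.84 (SE 0.21, adjusted p = 0.00235), and the ranges overlapped through the 2 highest libraries at 2 weeks, at 139.6 and 146 CPM. *Pgk1* rose from 462 ± 51.4 CPM to 672 ± 95.8 CPM (SD, n = 8 each), with a log2 fold change of 0.54 (SE 0.09, adjusted p = 6.93e-05).

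*Eno1* rose by less (log2 fold change 0.30, SE 0.11, adjusted p = 0.0276), and this call was lost in 6 of 16 fits with 1 library left out. *Slc2a1* was between 147 and 272 CPM at 2 weeks (median 197) and between 123 and 185 CPM at 12 weeks (median 154). It fell by 0.42 on the log2 scale (SE 0.12, adjusted p = 0.00547). *Ldha* fell by 0.23 (SE 0.09, adjusted p = 0.0334), with the call lost in 7 of 16 fits. *Car9*, *Pkm*, *Aldoa* and *Pfkp* did not pass, at -0.21, -0.08, -0.04 and 0.01. *Car9* passed in 4 of 16 fits with 1 library left out.

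The cell markers differed between these 2 sets of samples too. All 7 smooth muscle markers were higher at 12 weeks, from summed levels of 8.27 to 209.7 CPM to 1554 to 8755 CPM. All 5 fibroblast (47.1 to 225 against 310.0 to 3171 CPM), 5 endothelial (8.42 to 56.3 against 52.6 to 118 CPM), 5 macrophage (8.54 to 27.4 against 36.1 to 138 CPM) and 5 red blood cell markers (22.6 to 110.5 against 122 to 2462 CPM) rose, as did the 3 neutrophil markers tested (0.24 to 1.44 against 1.71 to 130 CPM). Epithelial markers summed to 13914 to 19235 CPM at 2 weeks and 9684 to 13209 CPM at 12 weeks, with 5 of 8 lower and *Cdh1* higher. Among lymphocyte markers 4 of 6 rose and 2 fell (23.9 to 92.0 against 24.3 to 275 CPM), 3 of 5 proliferation markers fell (189 to 391 against 139.6 to 314 CPM), 1 rose and 2 fell of 3 skeletal muscle markers (5.31 to 11.5 against 6.20 to 28.9 CPM), and 1 rose and 1 fell of 4 WNT target genes (29.3 to 46.9 against 34.7 to 56.3 CPM). The part of this shift in the change of the 10 genes was not tested.

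**Figure D4:**
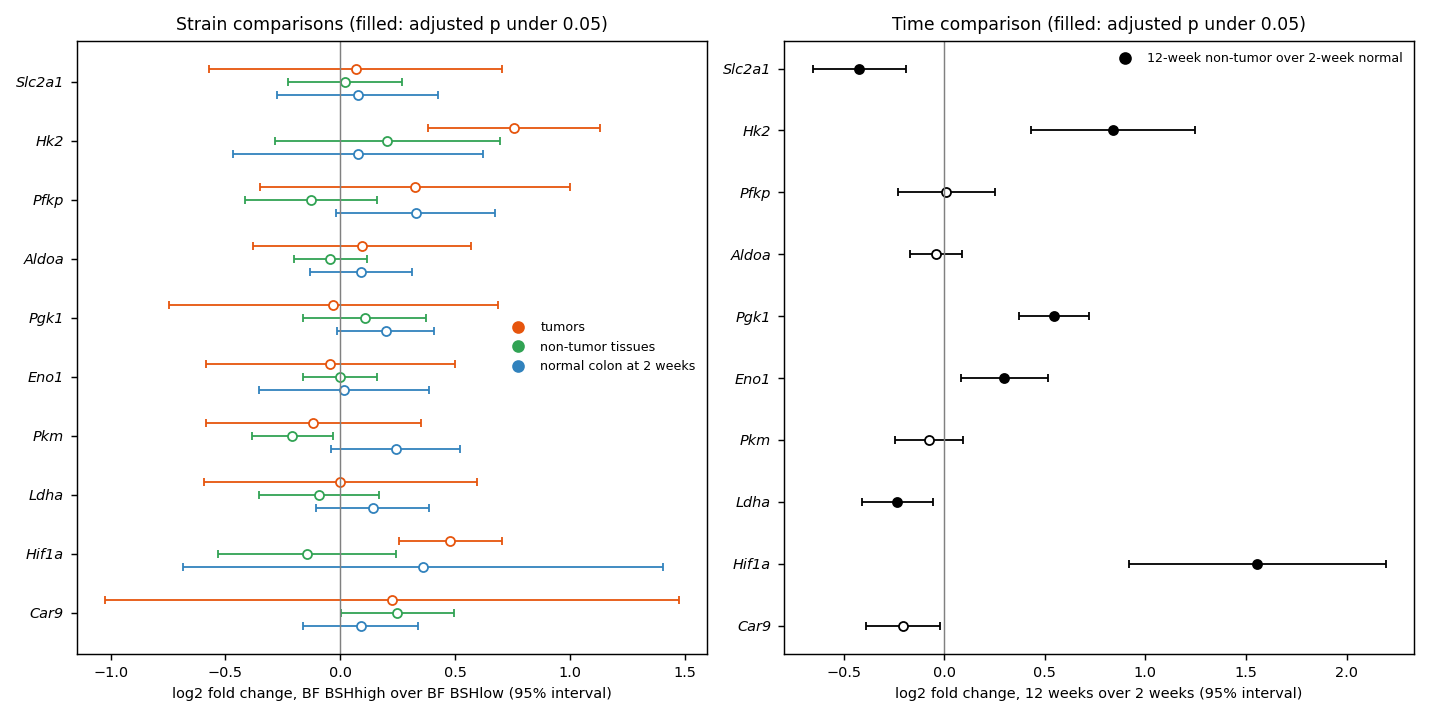
Log2 fold changes of the 10 genes between strains in each tissue and between non-tumor tissues at 12 weeks and normal colon at 2 weeks, with bars for the 95% interval. *Hif1a* and *Hk2* lie highest between strains in tumors (0.48 and 0.76) and over time (1.56 and 0.84).

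Other genes of the pathways were examined as lists, with the tumor comparison over both strains first. The counts below stand against 37.3% of all genes called higher and 34.9% lower in it. Of 28 other glycolysis genes tested, 12 rose and 13 fell (median log2 fold change -0.07). The largest rises were in *Slc16a3* (2.18, SE 0.28), a transporter that exports lactate, in *Hk3* (1.89, SE 0.28), a hexokinase of myeloid cells, and in *Ldhb* (1.70, SE 0.27), the other subunit of lactate dehydrogenase. *Slc16a3* was between 20.7 and 55.5 CPM in non-tumor tissues and between 90.6 and 256 CPM in tumors, without overlap. *Ldhb* was at 4.82 to 14.1 CPM and 16.1 to 38.3 CPM and did not overlap either, while *Ldha* was lower in tumors. Genes that fell included *Hkdc1* (-3.51, SE 0.49), a hexokinase-like enzyme, and *Eno3* (-3.15, SE 0.26), the enolase of muscle. *Eno3* was at 106 to 302 CPM in non-tumor tissues and 10.02 to 23.2 CPM in tumors. Smooth muscle markers were also lower in tumors, and whether *Eno3* followed them was not tested.

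Of 12 genes that govern the entry of pyruvate into mitochondria, 1 rose and 7 fell (median -0.54). *Mpc1* (-1.30) and *Mpc2* (-1.12), the subunits of the mitochondrial pyruvate carrier, fell, as did *Pdk2* (-1.75), a kinase that inhibits pyruvate dehydrogenase, and *Pdp1* (0.30, SE 0.10), the phosphatase that activates it, rose. The call of *Pdp1* was lost without tumor b of BF BSHhigh (adjusted p = 0.0634), and over the 15 such fits 0 to 2 genes of the list were higher. *Mpc1* was between 90.5 and 119 CPM in non-tumor tissues and between 33.2 and 50.3 CPM in tumors. Of 6 gluconeogenesis genes, 1 rose and 3 fell (median -1.001). The gene that rose was *G6pc3* (0.15, SE 0.06, adjusted p = 0.0285), whose call was lost in 6 of 15 fits with 1 library left out, with DESeq2, with RLE scaling and without the filter. The genes that fell were *Pcx* (-2.45), pyruvate carboxylase, *Fbp2* (-1.23), a fructose bisphosphatase, and *Pck1*, phosphoenolpyruvate carboxykinase. *Pck1* was at 82.3 to 188 CPM in non-tumor tissues and at 0.245, 0, 0 and 0 CPM in BF BSHlow and 12.4, 2.05 and 0.62 CPM in BF BSHhigh tumors. Its fitted log2 fold change of -7.79 (SE 0.63) depends on the prior count added to these low values.

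In the pentose phosphate pathway, which branches off after the first step of glycolysis and makes NADPH and ribose, 4 of 7 genes rose and 0 fell (median 0.27). *G6pdx*, the first enzyme of the branch, rose most (0.82, SE 0.06), from 52.9 to 62.5 CPM to 88.3 to 115 CPM, followed by *Taldo1* (0.36) and *Tkt* (0.30). Of 9 genes of the HIF pathway other than *Hif1a*, 1 rose and 7 fell (median -0.39). *Arnt2*, a partner subunit for HIF that is mainly known from neurons, rose from 0.445 to 1.81 CPM to 21.4 to 34.8 CPM (4.94, SE 0.24). *Hif3a* (-2.94), a further alpha subunit, *Epas1* (-1.93), the alpha subunit of HIF2, and *Egln3* (-0.82, adjusted p = 0.0127), a hydroxylase that marks HIF for degradation and is itself raised by HIF, fell. *Epas1* was between 144 and 252 CPM in non-tumor tissues and between 27.5 and 86.6 CPM in tumors.

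Of 24 other hypoxia target genes, 8 rose, 8 fell and 8 did not pass, with a median log2 fold change of 0.01. Neither share is larger than among all genes (37.3% higher and 34.9% lower). Genes that rose included *Lox* (2.61, SE 0.55), which cross-links collagen, and *P4ha2* (1.84), a collagen prolyl hydroxylase. Both are also made by fibroblasts, whose markers are given above, and the part of these cells in the rise was not tested. *Lox* was at 46.7 CPM in replicate 2 of the BF BSHlow non-tumor tissues and at 3.05 to 7.56 CPM in the other 7, and without that replicate its log2 fold change was 3.47. *Tfrc* (-1.51), the transferrin receptor, *Ankrd37* (-1.38) and *Higd1a* (-0.96), a mitochondrial protein, fell most. *Vegfa*, the growth factor for vessels, did not pass (0.27, SE 0.20, adjusted p = 0.236), and was named after its value was seen.

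**Figure D5:**
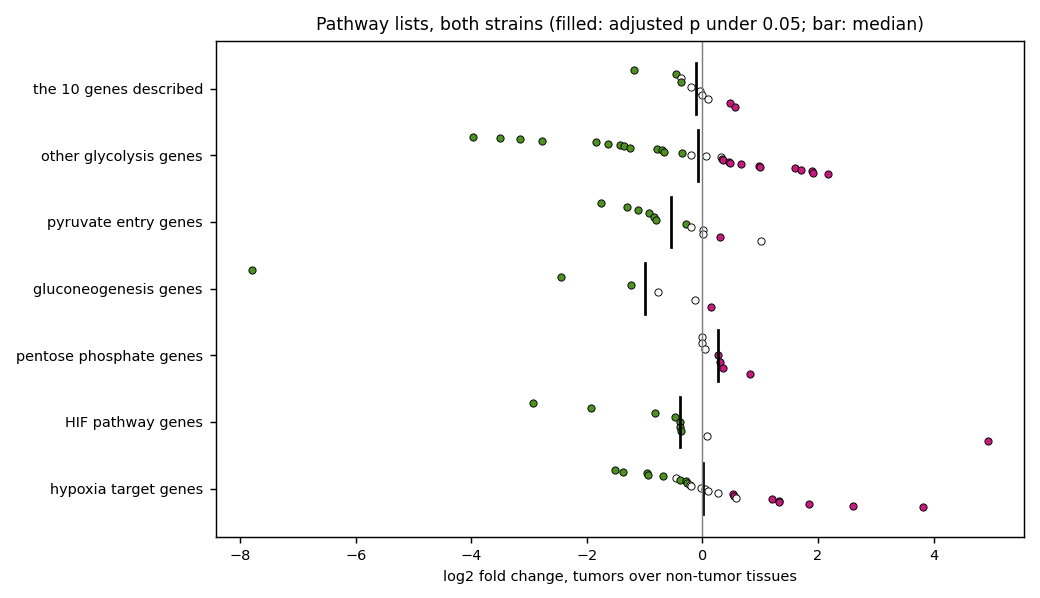
Log2 fold change of tumors against non-tumor tissues over both strains for each gene of the 6 pathway lists and the 10 genes described, with the median of each list marked. The medians run from -1.001 for gluconeogenesis to 0.27 for the pentose phosphate pathway, with -0.11 for the 10 genes and 0.04 for all genes.

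Between the strains, 0 genes of these lists were called by edgeR in tumors, in non-tumor tissues or in normal colon. In the interaction term 1 gene passed, *Pck1* (6.07, SE 1.32, adjusted p = 0.0421), whose levels are given above and whose call was lost in 13 of 15 fits with 1 library left out. Between 2 and 12 weeks, 33.0% of all genes were called higher and 30.2% lower. Of the other glycolysis genes, 13 were higher and 7 lower of 27 tested (median 0.28). The pyruvate entry genes split into 4 higher and 7 lower of 12, and the gluconeogenesis genes into 1 and 2 of 6. Of the pentose phosphate genes 0 were higher and 5 lower of 7. Among the HIF pathway genes 4 of 9 were higher, with *Hif3a* at 2.77, *Egln3* at 2.26 and *Epas1* at 0.65, and 2 were lower, with *Arnt2* at -2.99. Of the 24 hypoxia targets 12 were higher and 5 lower (median 0.36). The non-tumor tissues at 12 weeks are in both the tissue and the time comparison, so a gene's opposite signs in them are not independent.

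The genes most like each of the 10 over the 23 libraries were found by Pearson correlation of log2 CPM among the 16754 genes that passed the filter over all groups, with the 10 genes themselves compared apart. The libraries share their groups, so these values follow the differences between tissues and times and are a description only. For each of the 10, only its nearest gene outside the 10 was kept. The highest of these values were *Hif1a* with *Rab32* (r = 0.946), *Pfkp* with *Pdha1* (0.932), *Eno1* with *Gapdh* (0.920) and *Ldha* with *Prelid1* (0.911). Of genes outside the 10, *Pkm* was nearest to *Pvr* (0.890), *Hk2* to *Stom* (0.885), *Aldoa* to *Gpi1* (0.883), *Car9* to *Muc4* (0.849), and *Slc2a1* to *Pfkl* and *Pgk1* to *Dusp5* (both 0.839). *Gapdh*, *Gpi1* and *Pfkl* encode glycolytic enzymes, and *Pdha1* encodes a subunit of pyruvate dehydrogenase. Within the 10 genes, *Ldha* and *Aldoa* were the closest pair (0.918). The nearest of the 10 was *Aldoa* for *Car9* (0.895) and *Pfkp* (0.871), *Ldha* for *Slc2a1* (0.852) and *Eno1* for *Pgk1* (0.759). *Eno1* and *Pkm* were nearest to each other (0.840), as were *Hif1a* and *Hk2* (0.770).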

How the data were processed

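Colon RNA of 23 libraries was sequenced by the authors on paired-end libraries. Adapters and poor bases were cut off with Cutadapt and reads mapped to mm10 with STAR, and the authors deposited expected counts per gene from RSEM without normalization. Of the deposited values 4.24% are not whole. The study's methods name a stranded mRNA kit and a gavage every 3 days, and the labels a stranded total RNA kit and colonization 2 times a week. The columns of the 3 BF BSHhigh tumors repeat other names and were assigned as a group, because the study's supplement lists their values under that group, with 1995 of 1997 rows at hand equal within 0.05. Of 55450 rows with a gene, 1 (*Fgf6*) was left out because a cell holds text. Identifiers and symbols are those of GENCODE M21 (GRCm38), from which the coordinates come, and promoter windows are from RefSeq GRCm38.p6. *Aldoa* is given by its main row.

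Counts were rounded. The test was edgeR 4.0.16 (R 4.3.3) quasi-likelihood, with TMM, filterByExpr and Benjamini-Hochberg adjustment over all genes tested. Log2 fold changes were fitted with the default prior count of edgeR. A prior count of 2 was used only for log2 CPM and for the mean CPM by which genes were named. Calls were made at an adjusted p under 0.05, where stated with an absolute log2 fold change over 1. This test reports no SE, so the SE was taken as the absolute log2 fold change over the square root of the F statistic. The log2 fold change includes the prior count and F does not, so for counts near 0, as for *Pck1*, the SE is rough. Intervals are ± 1.96 SE, with the quantile of a normal distribution, and can be narrower than the edgeR test allows. For *Ldha* in tumors within BF BSHlow the interval was -0.97 to -0.04, with an unadjusted p of 0.0506 (edgeR). For *Car9* between strains in non-tumor tissues it was 0.002 to 0.494, with an unadjusted p of 0.0795 (edgeR). Calls rest on the adjusted p and not on these intervals. Tissue and interaction contrasts used the 15 libraries of 12 weeks, strain contrasts the groups compared, and the time contrast the 16 libraries without tumors. Nothing in the labels ties a library to an animal, so p-values measure the spread between these samples. Alternatives were DESeq2 1.42.0, limma-voom 3.58.1, RLE and upper-quartile scaling, no filter, CPM over 1 in 3 libraries, another span of libraries, the replicate number as a block, and fits without each library in turn. The test was checked on simulated counts. Between strains in tumors it recovered 31 of 100 genes changed by a log2 fold of 1 and 75 of 100 changed by 2. For tumors against non-tumor tissues it recovered 73 and 94 of 100, and for 12 against 2 weeks 75 and 93. Unchanged genes called were 7 between strains, 12 between tissues and 6 over time. In the data, 11881 of 16454 genes were called between tissues and 9809 of 15532 over time, far more than were changed in the simulation. The adjusted p depends on that number, so the recovered shares do not describe those 2 comparisons.

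The 10 genes, the pathway and marker lists and the tests were chosen with earlier results of these data known. Named were the 10 genes, up to 3 higher and 3 lower genes per pathway list with the largest fold among those called in tumors over both strains at a mean of at least 1 CPM, the gene most correlated with each of the 10, and near copies. Some genes that this rule names are not reported here. Markers were summed as CPM for epithelial, smooth muscle, endothelial, fibroblast, neutrophil, macrophage, lymphocyte, red blood cell and skeletal muscle cells, proliferation and WNT targets. Joins used pandas 2.3.3 and numpy 2.4.6 (Python 3.11.15).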

Additional observations from a re-analysis of the deposited data

Results flagged for a closer look

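In the non-tumor tissues of BF BSHlow, *Pfkp* was at 338 CPM in replicate 4 and between 215 and 228 CPM in the other 3 libraries, a gap of 0.894 of the whole range, which is past the 95% critical value of Dixon's test for 4 samples. This was the 1 such case among 50 sets of 4 libraries examined for the 10 genes, where chance gives about 1 in 20. Without this replicate *Pfkp* remained lower in tumors over both strains.

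The tissue contrast of *Pck1* differed between the strains by the interaction term, with a log2 difference of 6.07 (SE 1.32, adjusted p = 0.0421, edgeR). Of the BF BSHlow tumors 3 of 4 had 0 counts, so the size of this difference depends on the prior count. The call was lost in 13 of 15 fits with 1 library left out (adjusted p of up to 0.115) and with limma-voom (adjusted p = 0.310).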

How the results depend on the processing

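The number of the 10 genes called higher in tumors within BF BSHlow was 2, and it was 1 with limma-voom and with RLE scaling and 0 when the fit held only both groups compared. The number called lower was 2, and it was 1 with upper-quartile scaling, without the filter and in that smaller fit. Within BF BSHhigh the count of 1 higher became 2 with upper-quartile scaling and 3 in the smaller fit, where the count of 1 lower became 2. Between strains in tumors DESeq2 called 2 genes higher in place of 0, and the share of all genes it called was not counted. Over time the count of 2 lower became 1 with upper-quartile scaling and in a fit of all 23 libraries. *Slc2a1* and *Pgk1* in tumors over both strains lie close to 0 and changed sign, *Slc2a1* to 0.00771 with upper-quartile scaling and *Pgk1* to 0.0376 with that scaling, 0.0139 without the filter and 0.0128 in a fit of all 23 libraries. The causes were not tested.

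With the replicate number as a block, which could be fitted only where the columns carry numbers, the BF BSHlow tissue comparison gave 0 genes higher and 1 lower. It moved no other count by over 1.5 times. Same-numbered libraries of different groups had correlations of -0.17 to 0.26 between their deviations, and not every library was most like its own number, so the numbers were not taken to pair them.

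With 1 library left out, the counts in tumors over both strains were 2 to 3 higher and 1 to 4 lower (1 without tumor b of BF BSHhigh). Within BF BSHlow they were 0 to 2 higher and 1 to 4 lower, within BF BSHhigh 0 to 1 and 0 to 1, and over time 3 to 4 higher and 1 to 3 lower. *Slc2a1* ran from -0.14 to 0.0523 and *Pgk1* from -0.15 to 0.0808. Depth was between 12401388 and 17903008 expected counts per library. With 3 and 4 libraries, the intervals of the 10 genes between strains in tumors were as wide as -1.02 to 1.47 (*Car9*).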
